A study of Mus musculus with 8 samples.

Results

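The genes described here are the chemokines and chemokine receptors measured by bulk RNA sequencing in the quadriceps muscle of mice. Members are the gene symbols formed of Ccl, Cxcl, Cx3cl, Ccr, Cxcr, Cx3cr or Xcr and a number, with at least 10 counts summed over the 8 libraries, and 2 symbols of that form are left out by the rule. Of the 35494 symbols in the table, 55 fitted the rule and 41 reached 10 counts, of which 28 were ligands and 13 were receptors. The other 14 had 8 counts or fewer, and 8 of them, Ccl1, Ccl20, Ccl21f, Ccl26, Ccr6, Ccr8, Cxcl15 and Cxcl3, had 0 counts in every library. Just inside the threshold were Cxcl5 with 10 counts and Ccl27b with 11, and just outside it Ccl17 with 8 counts and Cxcr1 and Cxcr6 with 6 each. The tumour group (scMC38) was 4 male wild-type C57BL/6 mice injected under the skin with 1 M MC38 cells, a mouse colorectal cancer line, and the control group was 4 male wild-type C57BL/6 mice injected with the same volume of phosphate-buffered saline. Mice entered the study at 8 weeks of age, muscle was taken 28 days after injection, and each library came from 1 mouse. Nothing in the labels gives the tumour size or the distance between the tumour and the sampled muscle, and the series title calls the cachexia, a wasting of the body in cancer, mild.

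Chemokines are small secreted proteins that attract white blood cells along a gradient by binding receptors coupled to inhibitory G proteins. They are grouped by the spacing of their first cysteines into CC, CXC, CX3C and XC families, and most receptors are found on white blood cells. In muscle, fibroblasts, endothelial cells and resident macrophages make most of the known ligands. After muscle injury, CCR2 brings in monocytes, and CXCR3 ligands, which interferon gamma induces, attract T cells.

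No member passed the test of scMC38 against control at an adjusted p under 0.05. The 24 members with enough counts to be tested included 8 with an unadjusted p under 0.05. Cxcl13, Ccr1, Ccr2, Ccl6 and Ccl9 lay higher in scMC38, and Cxcl9, Ccl28 and Ccl11 lay lower. The test was edgeR's quasi-likelihood F test over 14112 genes with Benjamini-Hochberg adjustment, and all adjusted p-values below come from it unless DESeq2 is named. Over all tested genes edgeR called 1.2%, with 0.737% higher and 0.468% lower. An unadjusted p under 0.05 was found for 8 of 24 members (33.3%), 5 higher and 3 lower, and for 21% of all tested genes, 11.2% higher and 9.77% lower. DESeq2, a second count model, called 7 of the 24 members, the 8 named above without Ccl28, against 10.1% of the tested genes (5.87% higher and 4.23% lower). As DESeq2 called 829 genes higher and 597 lower where edgeR called 104 higher and 66 lower, whether these 7 members count as changed depends on the model. Groups did not overlap for 4 members, Cxcl13 and Ccr2 above and Cxcl9 and Ccl11 below, which is 16.7% of the 24 against 13.3% of all tested genes (6.82% higher and 6.45% lower), so this share is near the background. All levels below are in CPM, counts scaled to 1 M per library after TMM, a between-library scaling factor, and fold changes are scMC38 over control on the log2 scale.

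**Figure D1:**
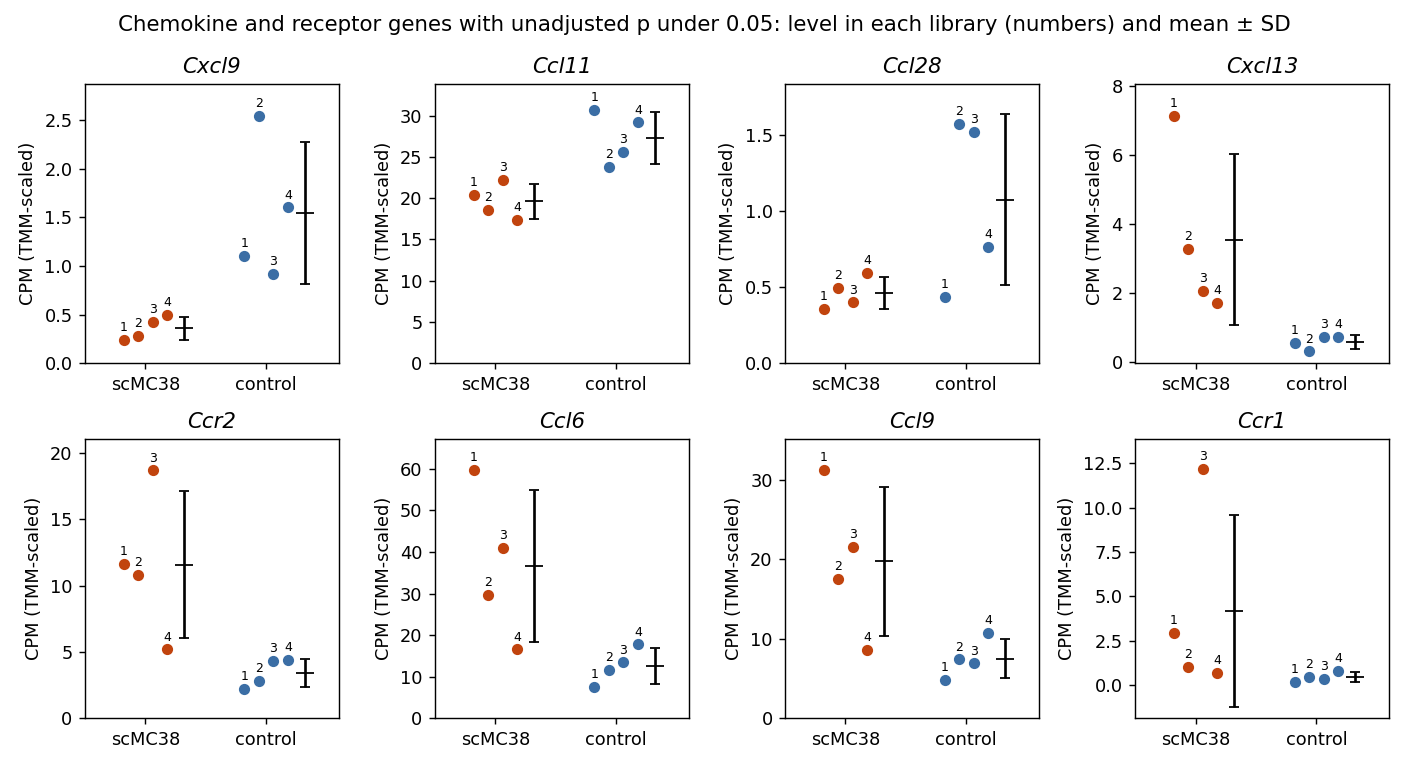
Level in CPM (vertical axes, linear) of the 8 chemokine and receptor genes with an unadjusted p under 0.05, in each of 4 scMC38 and 4 control libraries (points, numbered by replicate), with the mean and SD (bars). Cxcl9 and Ccl11 are lower and Cxcl13 and Ccr2 higher in every scMC38 library than in any control, and the other 4 genes overlap.

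Libraries held between 50.5 and 62.1 M counts, and they were not alike. Libraries scMC38 1 and 3 stood apart in marker genes of marrow, neutrophils and bone, with summed levels of 5 marrow progenitor markers of 45.5 and 398 CPM against 0.151 and 0.355 CPM in scMC38 2 and 4 and 0.0335 to 0.280 CPM in controls. The 9 neutrophil markers summed to 10.2 to 3917 CPM in scMC38 and 0.728 to 7.26 CPM in controls. The 12 monocyte and macrophage markers summed to 146 to 639.6 CPM in scMC38 and 138 to 192 CPM in controls. None of the tested genes on any marker list was called, and Ly6g, a defining neutrophil marker, had 0 CPM in scMC38 2 and in controls 1, 2 and 4. The filter left 0 of 5 marrow progenitor, 2 of 6 bone and 2 of 8 T and NK cell markers for the test. For those lists the lack of calls says little. Bone markers, 6 genes, summed to 5.73 to 261 CPM in scMC38 and 11.2 to 33.8 CPM in controls. Most of the control sum was Alpl, at 9.56 to 33.1 CPM in controls and 7.19, 5.22, 38.1 and 6.64 CPM in scMC38 1 to 4. Ibsp, another gene of the list, had 40.6, 0, 137 and 1.40 CPM in scMC38 1 to 4 and at most 0.0600 CPM in controls. The 8 muscle fibre markers summed to 109207 to 154188 CPM in scMC38 and 110554 to 151231 CPM in controls, as the tissue label has it. The 8 T and NK cell markers summed to 0.335 to 7.80 CPM in scMC38, with the highest value in scMC38 3, and 0.502 to 0.757 CPM in controls. In scMC38 3, Nkg7 alone gave 6.15 CPM of this sum. There Cd3e, Cd3g, Cd8a and Ncr1 lay inside the control range, and Cd3d, Cd4 and Il7r above it. Controls 1 and 2 had 24.3% and 29.7% of their counts on mitochondrial genes, against 14.4% to 18.9% in the 4 scMC38 libraries and 16.3% and 16.8% in controls 3 and 4. Results that rest on these libraries are also given without them. In muscle tissue as a whole, fewer cells of a type and less RNA per cell cannot be told apart.

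Among the CXCR3 ligands, Cxcl9 was the member with the smallest p. Cxcl9 encodes MIG, which attracts activated T cells and is induced by interferon gamma. Its levels were 0.236, 0.284, 0.427 and 0.492 CPM in scMC38 1 to 4 and 1.11, 2.55, 0.920 and 1.60 CPM in control 1 to 4. Every scMC38 library lay below every control, and the controls were spread more widely than the scMC38 libraries. The means were 0.36 ± 0.12 CPM in scMC38 and 1.54 ± 0.728 CPM in control (SD, n = 4). On the log2 scale the difference was -2.09 (SE 0.40, adjusted p = 0.0510), which missed the threshold narrowly, while DESeq2 gave an adjusted p of 1.76e-04. These levels rest on 84 counts in scMC38 and 338 counts in control. The difference was -1.96 with scMC38 1 and 3 left out (adjusted p = 0.126) and -1.82 with controls 1 and 2 left out (adjusted p = 0.281).

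The other 2 CXCR3 ligands were too low to be tested. Cxcl10 (IP-10) had 43 counts in scMC38 and 39 in control. Cxcl11 (I-TAC) had 19 counts in scMC38 and 64 in control, of which 61 were in controls 1 and 2. The receptor gene Cxcr3, which marks activated T cells, had 33 counts in scMC38 and 21 in control. The 3 ligand genes lie close together on mouse chromosome 5, and only Cxcl9 had counts enough for a test.

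The promoter windows of Cxcl9 and Cxcl10 are shown because Cxcl9 was the member with the smallest p and Cxcl10, next to it but for 1 gene and known to share inducers with it, had nearly equal counts in both groups. Both are RefSeq sequences of build GRCm38.p6, minus strand, from 250 bases before to 50 bases after the start, at chr5:92328030-92328329 and chr5:92348840-92349139. Capitals mark matches on either strand to GGGANTTCC or the same letters with 1 more T (NF-kB-like), to GAAA repeated after any 2 bases (interferon response element-like) and to TTCNNNGAA (gamma-activated site-like).
Cxcl9: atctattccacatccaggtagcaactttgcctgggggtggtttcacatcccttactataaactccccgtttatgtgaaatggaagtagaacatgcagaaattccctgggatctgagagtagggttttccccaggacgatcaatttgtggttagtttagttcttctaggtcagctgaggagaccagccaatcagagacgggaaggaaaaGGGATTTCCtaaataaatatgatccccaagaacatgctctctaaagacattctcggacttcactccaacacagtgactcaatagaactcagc
Cxcl10: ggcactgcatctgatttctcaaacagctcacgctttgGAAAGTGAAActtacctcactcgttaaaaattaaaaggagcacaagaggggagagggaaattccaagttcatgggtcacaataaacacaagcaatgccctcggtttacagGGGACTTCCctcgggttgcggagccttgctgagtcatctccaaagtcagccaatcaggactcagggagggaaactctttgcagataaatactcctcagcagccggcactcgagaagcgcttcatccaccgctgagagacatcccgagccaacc
Cxcl9 held 1 match, GGGATTTCC, and Cxcl10 held GGGACTTCC and GAAAGTGAAA. Of 32841 promoter windows of the same length, 1.68% held GGGANTTCC, 0.411% the form with 1 more T, 3.44% the GAAA repeat and 8.30% TTCNNNGAA. The first of these motifs was found in 3 of the 29 members with a window in the table, Cxcl9, Cxcl10 and Ccl25, and the last, TTCNNNGAA, in 0. The matches are letters in a window and say nothing of binding.

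The receptor gene Ccr2 lay higher in scMC38. CCR2 is the receptor through which inflammatory monocytes leave the marrow and enter tissue. Its levels were 11.6, 10.8, 18.7 and 5.20 CPM in scMC38 1 to 4 and 2.21, 2.82, 4.30 and 4.39 CPM in control 1 to 4. All 4 scMC38 libraries were above all controls, although scMC38 4 was only a little above controls 3 and 4. The log2 fold change was 1.76 (SE 0.38, adjusted p = 0.0713, DESeq2 adjusted p = 2.11e-04). Without scMC38 4 it was 2.00 and passed (adjusted p = 0.0490), the only edgeR call of a member when 1 library was left out. Without scMC38 1 and 3 it was 1.25 (adjusted p = 0.162). The monocyte and macrophage markers had the same order over scMC38 1 to 4, at 475, 297, 639.6 and 146 CPM summed, with 138 to 192 CPM in controls. In scMC38 4 this sum lay inside the control range, while Ccr2 was above every control. Of that list, Lyz2 had 200, 127, 374 and 65.2 CPM in scMC38 1 to 4 and 49.1 to 66.6 CPM in controls. Ly6c2 had 4.79, 0.662, 40.9 and 0.965 CPM in scMC38 1 to 4 and 0.728 to 1.33 CPM in controls. The part of these markers in the Ccr2 result was not tested.

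No CCR2 ligand passed the test. Ccl2 (MCP-1), the main monocyte attractant, had 0.354, 0.606, 0.413 and 0.256 CPM in scMC38 1 to 4 and 0.251, 0.517, 0.140 and 0.656 CPM in control 1 to 4, with wholly overlapping groups (log2 fold change 0.057, SE 0.50, adjusted p = 0.963). The 95% interval of its log2 fold change ran from -0.91 to 1.03. Ccl7 (MCP-3) had 31 counts in scMC38 and 29 in control, and Ccl12 (MCP-5) had 47 counts in scMC38 and 21 in control, and neither was tested. Ccl8 (MCP-2), which in mice acts mainly through CCR8, had 2.55, 1.15, 1.01 and 0.650 CPM in scMC38 1 to 4 and 0.0502, 0.240, 0.720 and 0.929 CPM in control 1 to 4. Controls 1 and 2 were the lowest for Ccl8, scMC38 4 was inside the control range, and the difference did not pass (log2 fold change 1.47, SE 0.75, adjusted p = 0.297), with a log2 fold change of 0.69 without controls 1 and 2. Ccr8 itself had 0 counts.

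Ccl6 and Ccl9, neighbouring genes on chromosome 11 whose products (C10 and MIP-1 gamma) are mouse CCR1 ligands made by macrophages and other myeloid cells, had similar profiles. Ccl6 levels were 59.6, 29.7, 41.0 and 16.6 CPM in scMC38 1 to 4 and 7.57, 11.7, 13.5 and 17.8 CPM in control 1 to 4. Ccl9 levels were 31.2, 17.6, 21.6 and 8.65 CPM in scMC38 1 to 4 and 4.84, 7.42, 6.92 and 10.8 CPM in control 1 to 4. For both, scMC38 1 was highest, then scMC38 3 and scMC38 2, while scMC38 4 lay below control 4 and so inside the control range. The log2 fold changes were 1.54 for Ccl6 (SE 0.39, adjusted p = 0.0884, DESeq2 adjusted p = 0.00154) and 1.40 for Ccl9 (SE 0.38, adjusted p = 0.0989, DESeq2 adjusted p = 0.00408). Without scMC38 1 and 3 they were 0.89 for Ccl6 and 0.83 for Ccl9.

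The promoter windows of Ccl6 and Ccl9 are shown because the levels of these genes ran in parallel across the libraries. Both are RefSeq sequences of build GRCm38.p6, minus strand, at chr11:83593038-83593337 and chr11:83578587-83578886. Capitals mark runs of 9 or more bases that occur in both windows.
Ccl6: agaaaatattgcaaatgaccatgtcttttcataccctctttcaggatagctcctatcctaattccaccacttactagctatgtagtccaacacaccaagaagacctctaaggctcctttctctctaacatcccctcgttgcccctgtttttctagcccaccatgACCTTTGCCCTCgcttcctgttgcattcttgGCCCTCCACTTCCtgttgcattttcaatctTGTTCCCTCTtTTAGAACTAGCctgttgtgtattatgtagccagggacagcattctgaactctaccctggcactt
Ccl9: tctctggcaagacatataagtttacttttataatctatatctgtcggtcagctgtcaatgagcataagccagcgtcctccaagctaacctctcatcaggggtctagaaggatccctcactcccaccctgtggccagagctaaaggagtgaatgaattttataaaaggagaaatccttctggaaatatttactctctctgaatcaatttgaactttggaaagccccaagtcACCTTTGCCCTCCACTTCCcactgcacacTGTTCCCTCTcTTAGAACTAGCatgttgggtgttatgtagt
The longest run in common had 13 bases, GCCCTCCACTTCC, and 6 of the 32841 windows (0.0183%) held it on either strand. The windows of Ccl6 and Ccl9 are among these 6. As the run was picked from them, the share does not measure how rare a match between windows is. In all, 46 bases of the Ccl6 window and 40 bases of the Ccl9 window lay in shared runs of 9 or more bases.

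Ccr1, the receptor for these ligands, found on monocytes and neutrophils, had the largest log2 fold change of the tested members. It stood at 2.92, 1.02, 12.2 and 0.689 CPM in scMC38 1 to 4 and 0.184, 0.480, 0.360 and 0.801 CPM in control 1 to 4. Library scMC38 3 was far above the rest, and scMC38 4 lay below control 4. Its fold change was 3.20 on the log2 scale (SE 0.94, adjusted p = 0.117, DESeq2 adjusted p = 0.00283). It was 1.75 when scMC38 3 was left out and 0.93 when scMC38 1 was left out as well (adjusted p = 0.402). The neutrophil markers summed to 432, 10.2, 3917 and 31.8 CPM in scMC38 1 to 4 and 0.728 to 7.26 CPM in controls. Like Ccr1, they were highest in scMC38 3 and next in scMC38 1, but the order of the remaining libraries differed. Library scMC38 2 was above scMC38 4 for Ccr1 and below it for the markers. Control 4 had the highest Ccr1 of the controls and the lowest marker sum, 0.728 CPM. The part of the neutrophil markers in the Ccr1 result was not tested.

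Other CC ligands of monocytes and T cells were scarce, with Ccl3 (MIP-1 alpha) at 11 counts in scMC38 and 6 in control and Ccl5 (RANTES) at 19 counts in scMC38 and 21 in control, and neither was tested.

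The eotaxins, which attract eosinophils through CCR3, had unlike profiles. Ccl11 (eotaxin-1), made by fibroblasts, had 20.4, 18.6, 22.2 and 17.3 CPM in scMC38 1 to 4 and 30.7, 23.8, 25.6 and 29.2 CPM in control 1 to 4. The groups were separate by a small margin, between scMC38 3 and control 2, and the spread within each group was small. Means were 19.6 ± 2.11 CPM in scMC38 and 27.3 ± 3.18 CPM in control (SD, n = 4). The log2 fold change was -0.48 (SE 0.11, adjusted p = 0.0779, DESeq2 adjusted p = 0.00373). Scaling by total counts alone, which shifts the median of all genes by 0.11, gave -0.36 (adjusted p = 0.198), and without scMC38 1 and 3 the value was -0.58 (adjusted p = 0.0938). Fibroblast markers, 5 genes with 0 called, summed to 551 to 904 CPM in scMC38 and 697 to 899.5 CPM in control, and their part in the result was not tested.

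Ccl24 (eotaxin-2), by contrast a macrophage product, had 3.07, 2.38, 1.89 and 0.808 CPM in scMC38 1 to 4 and 1.83, 2.16, 1.76 and 2.40 CPM in control 1 to 4. Library scMC38 1 was the highest and scMC38 4 the lowest, the other scMC38 libraries were inside the control range, and the log2 fold change was 0.0027 (SE 0.36, adjusted p = 0.998). Ccr3 had 26 counts in scMC38 and 14 in control and was not tested. The difference between Ccl11 and Ccl24 was not tested.

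Cxcl13 was the ligand with the largest fold change. CXCL13 attracts B cells through CXCR5 and organises lymphoid follicles. Its levels were 7.14, 3.27, 2.08 and 1.71 CPM in scMC38 1 to 4 and 0.569, 0.314, 0.740 and 0.747 CPM in control 1 to 4. Even the lowest scMC38 library was above the highest control, and the highest was scMC38 1, followed by scMC38 2 and scMC38 3. The means were 3.55 ± 2.48 CPM in scMC38 and 0.592 ± 0.203 CPM in control (SD, n = 4), from 829 counts in scMC38 and 129 counts in control. This gave a log2 difference of 2.58 (SE 0.51, adjusted p = 0.0553, DESeq2 adjusted p = 2.24e-05). Without scMC38 1 and 3 the log2 fold change was 2.09 (adjusted p = 0.0720). With scaling by total counts alone Cxcl13 and Cxcl9 passed (adjusted p = 0.0461 and 0.0470), and they were the members called there. The receptor gene Cxcr5 had 17 counts in scMC38, of which 16 were in scMC38 3, and 10 counts in control. The 6 B and plasma cell markers summed to 49.5 to 107 CPM in scMC38 and 80.3 to 182 CPM in control, with 0 of 4 tested genes called.

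The CCR7 ligands, which guide dendritic cells and naive T cells into lymphatics and lymph nodes, showed no difference that passed. Ccl19 stood at 2.07, 1.85, 1.52 and 0.906 CPM in scMC38 1 to 4 and 1.36, 1.51, 1.34 and 1.84 CPM in control 1 to 4, with scMC38 4 the lowest and scMC38 1 and 2 just above the highest control (log2 fold change 0.073, SE 0.28, adjusted p = 0.906). Ccr7 had 24 counts in scMC38 and 9 in control and was not tested.

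Ccl21, which lymphatic endothelium makes, is present in mice as several nearly identical genes, and the table gives counts for 3 of them. Coding sequences from the GENCODE M21 transcripts (build GRCm38, chromosome 4; the transcript Gm21541 was used for Ccl21d, whose older name it is) had 402 bases each. Ccl21b and Ccl21d were identical over all 402 bases, and Ccl21a differed from each at 2 of them, T84A and C194T, counted from the first base of the start codon with the Ccl21a base first. Bases 55 to 114 around the first of these are shown because so few letters separate the rows, with the differing base in capitals.
Ccl21a: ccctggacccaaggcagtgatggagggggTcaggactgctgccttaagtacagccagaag
Ccl21b: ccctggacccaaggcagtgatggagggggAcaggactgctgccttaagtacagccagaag
Ccl21d: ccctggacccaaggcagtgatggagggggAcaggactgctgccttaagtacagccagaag
In the deposited table, Ccl21b had 173, 353, 575 and 0 counts in scMC38 1 to 4 and 306, 0, 449 and 0 counts in control 1 to 4. Ccl21d had 757, 0, 0 and 326 counts in scMC38 1 to 4 and 0, 346, 0 and 273 counts in control 1 to 4. In 7 of the 8 libraries one of these rows was at 0 and the other held between 34.7% and 41.2% of the Ccl21 counts, and scMC38 1 had counts in both. The zeros followed neither group, and the single rows cannot be read as expression of single genes.

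**Figure D2:**
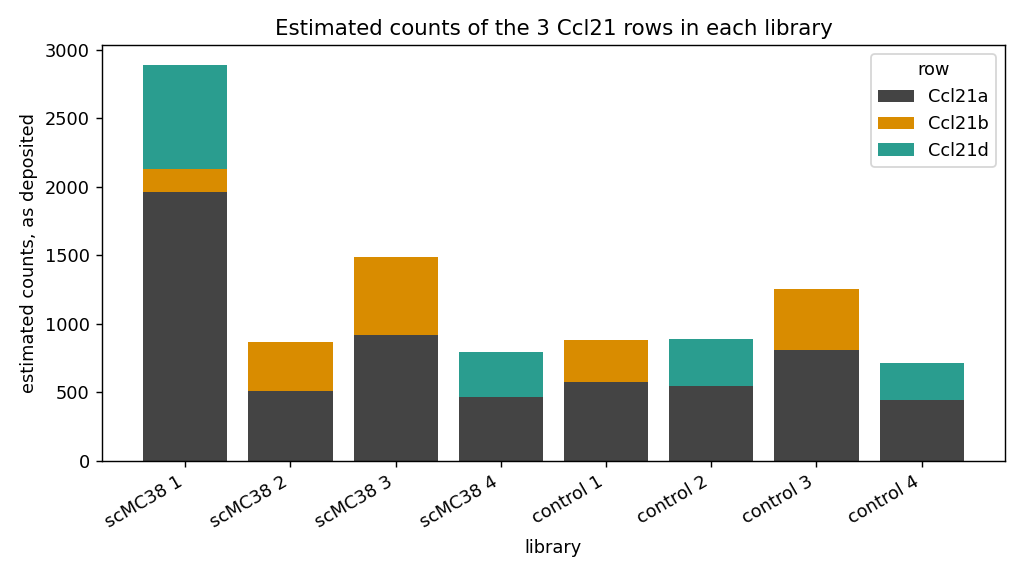
Estimated counts as deposited (vertical axis) of the rows Ccl21a, Ccl21b and Ccl21d, stacked, in each of 4 scMC38 and 4 control libraries. Ccl21a takes between 58.8% and 67.8% of the stack everywhere, and the rest falls on Ccl21b or Ccl21d, with both present in scMC38 1 alone.

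Summed over the 3 rows, a step chosen after seeing the data, Ccl21 stood at 48.7, 16.3, 21.2 and 15.6 CPM in scMC38 1 to 4 and 14.8, 16.4, 25.1 and 13.0 CPM in control 1 to 4. Library scMC38 1 was the highest by a wide margin and the other 3 scMC38 libraries lay inside the control range. The log2 fold change of the sum was 0.56 (adjusted p = 0.429) and 0.034 without scMC38 1. The separate rows gave 0.57 for Ccl21a (SE 0.43), 0.34 for Ccl21b (SE 1.64) and 0.76 for Ccl21d (SE 1.92), with adjusted p of 0.467, 0.929 and 0.850. The SE of Ccl21b and Ccl21d were the largest among the tested members. Ccl21a alone had 33.0, 9.65, 13.0 and 9.16 CPM in scMC38 1 to 4 and 9.64, 9.98, 16.1 and 8.05 CPM in control 1 to 4.

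Cxcl12 (SDF-1), which stromal and endothelial cells make and which holds CXCR4-bearing cells in marrow and tissue, was abundant in every library. Its levels were 66.7, 76.8, 130.0 and 86.0 CPM in scMC38 1 to 4 and 94.6, 143, 86.7 and 77.2 CPM in control 1 to 4. The highest library was control 2 and the next scMC38 3, scMC38 1 and 2 lay just below the lowest control, and the groups overlapped (log2 fold change -0.16, SE 0.25, adjusted p = 0.742), with an interval from -0.65 to 0.33. Its receptor gene Cxcr4, which most white blood cells express, had 5.36, 1.93, 16.4 and 1.58 CPM in scMC38 1 to 4 and 2.61, 3.43, 3.52 and 2.97 CPM in control 1 to 4. Libraries scMC38 1 and 3 were above every control and scMC38 2 and 4 below every control. The log2 fold change of Cxcr4 was 1.02 (SE 0.67, adjusted p = 0.411) over all libraries and -0.82 without scMC38 1 and 3 (adjusted p = 0.114). It was -0.084 without scMC38 3 alone (adjusted p = 0.930) and 1.09 without scMC38 1 alone (adjusted p = 0.496), so its direction rests on scMC38 3. Ackr3, an atypical receptor that takes up CXCL12 and was singled out after its values were seen, averaged 17.8 ± 3.89 CPM in scMC38 and 27.0 ± 2.42 CPM in control (SD, n = 4; log2 fold change -0.60, SE 0.15, adjusted p = 0.0896).

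Cx3cl1 (fractalkine), a membrane-bound ligand of endothelial cells, had 1.37, 1.80, 2.53 and 1.99 CPM in scMC38 1 to 4 and 2.61, 4.37, 2.08 and 2.29 CPM in control 1 to 4. Control 2 was the highest library, and the difference did not pass (log2 fold change -0.56, SE 0.29, adjusted p = 0.301). Its receptor gene Cx3cr1, found on patrolling monocytes and some macrophages, had 1.20, 0.587, 3.10 and 0.473 CPM in scMC38 1 to 4 and 0.385, 0.923, 0.420 and 0.401 CPM in control 1 to 4. The value in scMC38 3 was the highest, and its log2 difference of 1.34 (SE 0.63, adjusted p = 0.263) was 0.018 without scMC38 1 and 3. Cxcl16, also membrane-bound and a ligand of CXCR6, had 2.51, 2.23, 2.45 and 2.01 CPM in scMC38 1 to 4 and 2.61, 2.77, 1.94 and 1.88 CPM in control 1 to 4 (log2 fold change 0.0017, SE 0.19, adjusted p = 0.997), while Cxcr6 had 6 counts in all. Xcr1, the receptor of cross-presenting dendritic cells, had overlapping groups (log2 fold change -0.18, SE 0.52, adjusted p = 0.867).

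The ligands known from gut and skin homing were measured mostly at even levels. Ccl27a, a CCR10 ligand of skin, had 5.13, 4.67, 4.54 and 5.46 CPM in scMC38 1 to 4 and 5.34, 6.42, 5.62 and 5.66 CPM in control 1 to 4 (log2 fold change -0.22, SE 0.11, adjusted p = 0.303). Ccl25, the CCR9 ligand of thymus and small intestine, had 2.97, 4.09, 3.00 and 3.01 CPM in scMC38 1 to 4 and 3.20, 2.49, 3.30 and 5.46 CPM in control 1 to 4 (log2 fold change -0.14, SE 0.25, adjusted p = 0.770). Ccl28, a mucosal ligand of CCR10 and CCR3, had 0.354, 0.492, 0.399 and 0.591 CPM in scMC38 1 to 4 and 0.435, 1.57, 1.52 and 0.765 CPM in control 1 to 4. Controls 2 and 3 were well above the rest and control 1 was inside the scMC38 range (log2 fold change -1.22, SE 0.43, adjusted p = 0.161, DESeq2 adjusted p = 0.0828). The receptor genes were close to absent, with Ccr9 at 12 counts in scMC38 and 8 in control and Ccr10 at 12 counts in scMC38 and 7 in control, and Ccl27b had 1 count in scMC38 and 10 in control.

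Among the members, the neutrophil attractants of the CXC family were scarce. Cxcl1 (KC) had 24 counts in scMC38 and 35 in control. Cxcl5 (LIX) had 10 counts in scMC38, of which 7 were in scMC38 3, and 0 in control, where 3 counts of 227 M would correspond to 0.0132 CPM, a limit for counting error only. The T helper cell axis was as low, with Ccl22 (MDC) at 6 counts in scMC38 and 12 in control and its receptor gene Ccr4 at 29 counts in scMC38 and 11 in control. None of the 17 members below the filter was tested.

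**Figure D3:**
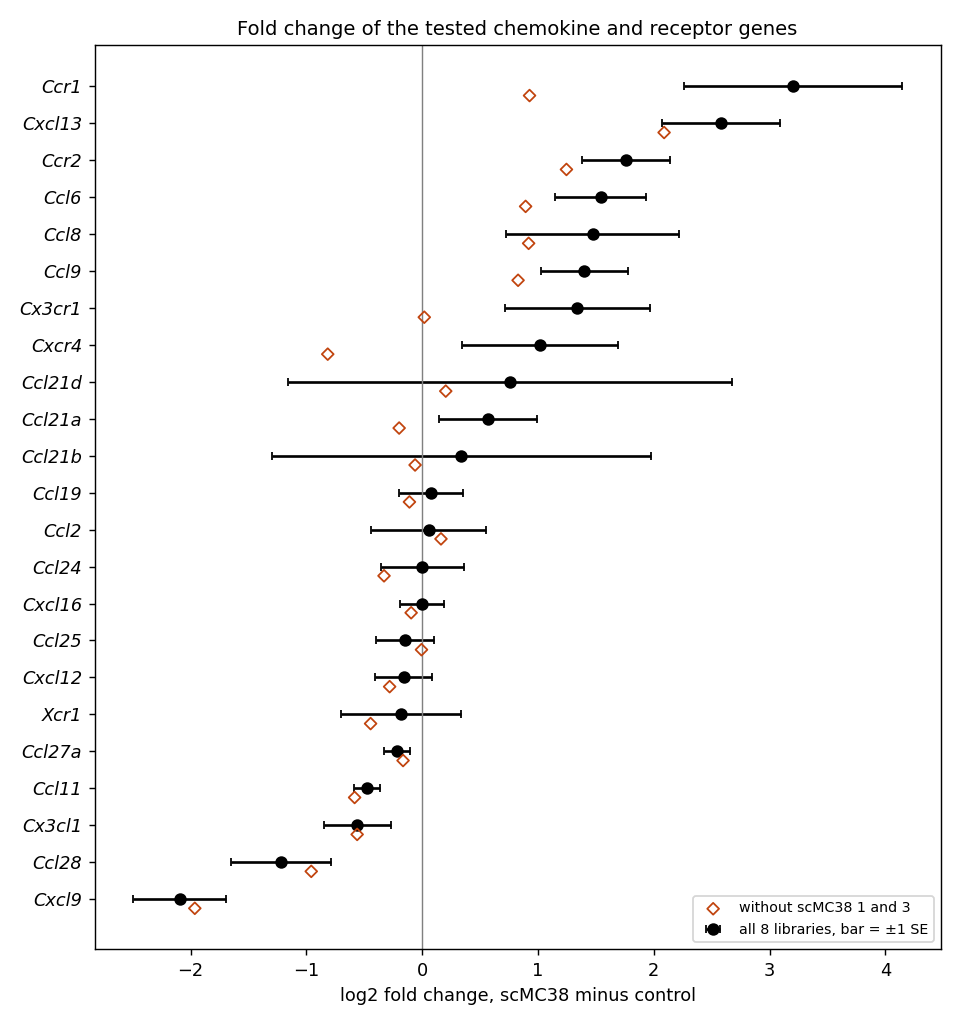
Log2 fold change, scMC38 minus control (horizontal axis), of tested chemokine and receptor genes, with ±1 SE from edgeR over all 8 libraries (black) and the value without scMC38 1 and 3 (open diamonds). Cxcl9 and Ccl11 lie close to their values over all libraries when scMC38 1 and 3 are left out. Cxcl13 goes from 2.58 to 2.09, and Ccr1, Cxcr4 and Cx3cr1 lie much lower.

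Libraries scMC38 1 and 3 led for several receptor genes. In 6 of the 24 tested members (25%) the 2 highest libraries were scMC38 1 and 3, which was the case for 11.4% of all tested genes. These were the receptor genes Ccr1, Ccr2, Cxcr4 and Cx3cr1, 4 of the 6 tested receptors, and the ligand genes Ccl6 and Ccl9, 2 of the 18 tested ligands. Of the 4 members whose groups did not overlap, Ccr2 was also in this set, and Cxcl9, Cxcl13 and Ccl11 were not. The median log2 fold change was 0.21 over the tested members and 0.00087 over all tested genes.

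**Figure D4:**
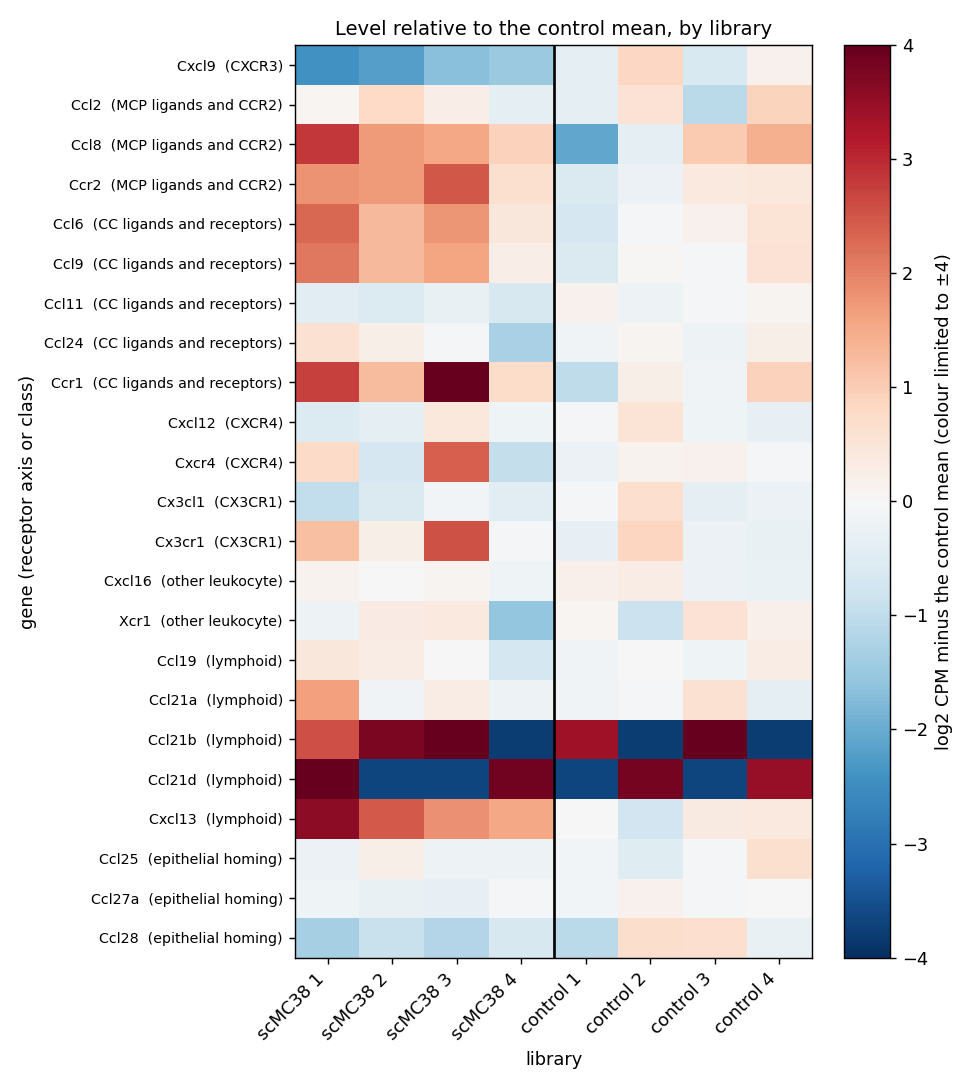
Log2 CPM (prior count 2) minus the control mean for tested chemokine and receptor genes (rows, with receptor axis or class) in 4 scMC38 and 4 control libraries (columns), with colour limited to ±4. Cxcl9 is low and Cxcl13 high across all scMC38 libraries, Ccr1 and Cxcr4 are highest in scMC38 3, and Ccl21b and Ccl21d alternate between libraries.

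**Figure D5:**
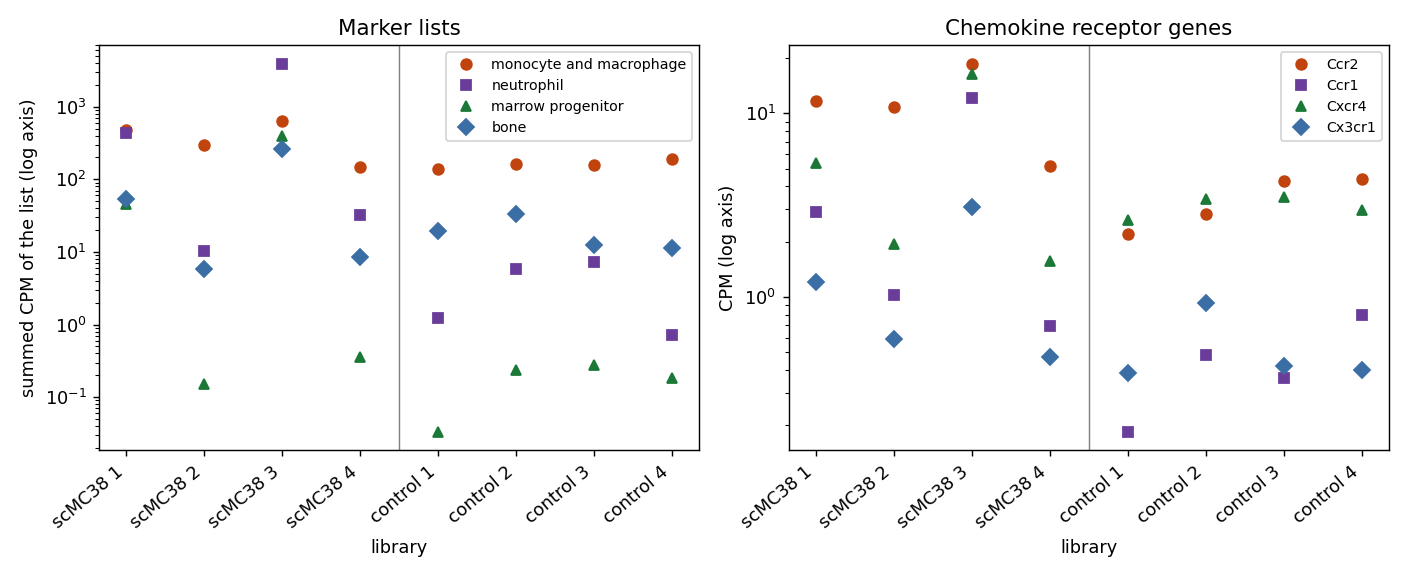
Left, summed CPM of 4 marker lists, and right, CPM of 4 receptor genes, each in 4 scMC38 and 4 control libraries (log axes). Neutrophil, marrow progenitor and bone markers and all 4 receptor genes are highest in scMC38 3, while scMC38 2 has high Ccr2 (10.8 CPM) with marrow progenitor markers at 0.151 CPM.

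Levels were compared between genes per kilobase of the longest protein-coding GENCODE M21 transcript, leaving out the Ccl21 rows, which cannot be read as single genes. In scMC38 the order of means was Ccl6 at 25.5 ± 12.7 CPM per kilobase, Ccl11 at 18.1 ± 1.95 and Cxcl12 at 16.0 ± 4.95 (SD, n = 4), and neighbours lay within their summed SDs of each other. In controls the order was Ccl11 at 25.2 ± 2.94 CPM per kilobase, Cxcl12 at 17.9 ± 5.23 and Ccl6 at 8.77 ± 2.94 (SD, n = 4). Of these neighbours, Ccl11 and Cxcl12 lay within their summed SDs, and Cxcl12 and Ccl6 did not. The receptor gene with the highest mean was Cxcr4, at 3.50 ± 3.84 CPM per kilobase in scMC38 and 1.74 ± 0.235 in control, followed by Ccr2 at 2.02 ± 0.965 in scMC38 and 0.599 ± 0.189 in control. In scMC38 this order rests on scMC38 3, and without it the means were 1.64 ± 1.16 CPM per kilobase for Cxcr4 and 1.61 ± 0.613 for Ccr2 (SD, n = 3), within each other's spread.

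Genes around the chemokine system were followed through 4 lists. Of 8 tested relatives outside the symbol pattern, 1 was called, higher: Ackr1, the atypical receptor of venular endothelium and red cells that binds and carries many chemokines, averaged 5.53 ± 0.518 CPM in scMC38 and 1.63 ± 0.525 CPM in control (SD, n = 4; log2 fold change 1.77, SE 0.23, adjusted p = 0.0201). Its call was lost without control 1, 2 or 3 (adjusted p = 0.0865, 0.0525 and 0.0613) and without scMC38 1 and 3 together (1.73, adjusted p = 0.0559). The median of that list was 0.49, and -0.44 without scMC38 1 and 3.

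Of 27 tested genes of chemokine receptor signalling, 0 were called by edgeR. DESeq2 called 11, all higher, where over all tested genes it called 5.87% higher. An unadjusted p under 0.05 was found for 14, all higher, which is 51.9% of the list against 11.2% of all tested genes in that direction. The 2 highest libraries were scMC38 1 and 3 for 16 of the 27 (59.3%), against 11.4% of all tested genes. The median of this list was 0.48, and 0.077 without scMC38 1 and 3. The smallest p belonged to Plcb2, a phospholipase of myeloid cells (log2 fold change 3.76, SE 1.00, adjusted p = 0.0971, and 1.26 without scMC38 1 and 3), Rgs16, which ends G protein signals (1.23, SE 0.34, adjusted p = 0.106), and the G protein subunit gene Gng2 (0.69, SE 0.19, adjusted p = 0.106).

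The interferon gamma list, which covers the cytokine, its receptors and genes they act on, had 0 of 19 tested genes called by edgeR, with 4 higher and 5 lower at an unadjusted p under 0.05, which is 47.4% of the list against 21% of all tested genes. DESeq2 called 4 higher and 1 lower, where over all tested genes it called 5.87% higher and 4.23% lower. Ifng itself reached at most 0.0200 CPM in any library. Iigp1, an interferon-induced GTPase, had -0.82 (SE 0.23, adjusted p = 0.110), while Irf8, a myeloid transcription factor, had 0.76 (SE 0.22, adjusted p = 0.111) and Cd74, the invariant chain of antigen presentation, 0.89 (SE 0.27, adjusted p = 0.124). The list's median was -0.0999. Of 12 tested genes of heparan sulfate synthesis and chemokine presentation, 0 were called by edgeR or DESeq2 and 2 had an unadjusted p under 0.05, against 21% of all tested genes. Those with the smallest p were Hs6st1 (0.27, adjusted p = 0.183), Ndst2 (0.27, adjusted p = 0.194) and Sdc3 (0.51, adjusted p = 0.303).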

How the data were processed

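Quadriceps RNA of 8 mice was sequenced with an mRNA library kit (Universal Plus mRNA-seq), per the labels' protocols. The table deposited by the authors holds estimated counts per gene symbol, not scaled for depth or length. Fractions occur in 49.3% of the nonzero values. Salmon 1.10.3, fastp 1.0.1, R 4.4.3, MultiQC 1.30, FastQC 0.12.1 and build GRCm39 are listed, without roles, in the submitters' processing notes. Annotation release and strand handling: not given in the sources used here. Estimated counts of near-identical genes, such as the Ccl21 rows, are uncertain.

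Rows without a symbol (144 of 35667, at most 0.00403% of a library) were left out, 26 repeated symbols were summed and values rounded. edgeR 4.0.16 in R 4.3.3 was run with filterByExpr defaults (minimum count 10, minimum total 15), TMM, a robust quasi-likelihood fit with no covariate and Benjamini-Hochberg adjustment over 14112 genes. The common biological coefficient of variation was 27.3%, and the standard error is that implied by the F statistic. DESeq2 1.42.0 was an alternative. Intervals are normal 95% intervals from the SE. No 2 libraries of a group were alike within counting noise (chi-square per degree of freedom from 63.2 to 480), so each counted as 1 replicate, and the labels name no batch.

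The members and gene lists were chosen with earlier results of these data known. Tested members are named, with values per library for those with a mean of at least 1 CPM or an unadjusted p under 0.05 and for Ccl2, Ccl8 and Cx3cr1, and from each list the called genes or otherwise the 3 with the smallest p. Ackr3 and Ppbp were added after their values were seen. Some items are counted but not reported here. Promoters and transcripts are of GRCm38, not the build of the counts, and 29 of the 41 members had a promoter window.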

Additional observations from a re-analysis of the deposited data

Results flagged for a closer look

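Within groups of 4 libraries, 50 sets of values were examined for a library far from the other 3, where chance marks about 1 in 20. There were 4 such cases. Ccl21a in scMC38 1 stood at 33.0 CPM, while the other scMC38 libraries ran from 9.16 to 13.0 CPM. The sum of Ccl21a, Ccl21b and Ccl21d in scMC38 1 was 48.7 CPM, with 15.6 to 21.2 CPM in the other scMC38 libraries. Ccl25 in scMC38 2 was at 4.09 CPM, with the others between 2.97 and 3.01 CPM. Cx3cr1 in control 2 was at 0.923 CPM, with the other controls between 0.385 and 0.420 CPM.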

How the results depend on the processing

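Depth limits this account to 24 of the 41 members, as the other 17 had too few counts for a test, and the shallow genes of the CXCR3 and CCR7 axes are among them. The part that the mitochondrial share of controls 1 and 2 and the marrow and bone markers of scMC38 1 and 3 have in the results was not tested.

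Across 16 alternatives, edgeR called at most 1 member in each direction, and DESeq2 called 5 higher and 2 lower. Over all genes, calls higher and lower numbered 829 and 597 with DESeq2, 216 higher with total counts alone, 69 higher with no filter, 0 and 1 with the replicate block, 25 and 39 without scMC38 1 and 3, and 0 and 0 without controls 1 and 2, where the smallest edgeR adjusted p was 0.138 and 1605 genes had an unadjusted p under 0.05. Leaving out 1 library gave 1 to 59 higher and 1 to 52 lower. Total counts alone called 1 member higher and 1 lower, and leaving out 1 library called 0 to 1 higher. Members without overlap between groups numbered 1 lower with total counts alone or with at least 1 CPM in 4 libraries, 4 lower without scMC38 1 and 3, 4 higher and 4 lower without controls 1 and 2, and 2 to 6 higher and 2 to 4 lower without any 1 library. Any gene separates more easily with fewer libraries, and the number of tested members changed as well. The share over all tested genes is not given for these settings, so the larger counts cannot be read as a result about the members. In the list of relatives DESeq2 called 2 higher and 1 lower, and edgeR 0 with the replicate block, without scMC38 1 and 3 or without controls 1 and 2, and 0 to 1 without any 1 library. DESeq2 called 11 signalling genes higher and 4 interferon genes higher and 1 lower, and leaving out 1 library called 0 to 1 interferon gene higher.

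The sign of the log2 fold change turned for these members, none of them called: with the replicate block, -0.11 for Ccl24, without scMC38 1 and 3, -0.33 for Ccl24, -0.82 for Cxcr4, -0.095 for Cxcl16, -0.11 for Ccl19, -0.20 for Ccl21a, -0.061 for Ccl21b and -0.098 for the sum of the Ccl21 genes; and without controls 1 and 2, -0.040 for Ccl24, 0.12 for Cxcl12, -0.010 for Ccl19 and -0.020 for Ccl21b. Leaving out 1 library in turn gave -0.26 to 0.26 for Ccl24, -0.085 to 0.10 for Cxcl16, -0.081 to 0.26 for Ccl19, -0.043 to 0.81 for Ccl21a, -0.41 to 1.53 for Ccl21d, -0.22 to 0.42 for Ccl2, -0.084 to 1.33 for Cxcr4, -0.14 to 1.37 for Ccl21b, -0.42 to 0.11 for Xcr1, -0.40 to 0.059 for Cxcl12 and -0.29 to 0.13 for Ccl25. The cause was not tested.

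The replicate numbers did not pair the samples: same-numbered deviations correlated at -0.113, -0.281, -0.00583 and -0.245. The replicate block left 0 members called, with Ackr1 at an edgeR adjusted p of 0.129, and all other alternatives were run.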
